A study of Homo sapiens with 12 samples.

Results

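The MYC and MAX network genes were followed through a cell model of kidney tubule injury. The 10 genes were MYC, MYCN, MYCL, MAX, MXI1, MXD1, MXD3, MXD4, MNT and MLX, picked by gene symbol from the 35238 genes of the expression table. All 10 symbols were found in the table, and 9 of the 10 genes had reads. RNA was measured by bulk sequencing of poly(A)-selected RNA from HK-2 cells, an immortalised line of human proximal tubule epithelium. Each culture received 10 nM of a small interfering RNA duplex, either a scrambled sequence (SCR) or one against POLR2A (siB), the gene of the largest subunit of RNA polymerase II. At the same time it received 25 µM aristolochic acid I (AAI), which is a toxin of plants that forms DNA adducts in tubule cells, or the same volume of the solvent DMSO, for 24 hours. The 4 groups, SCR DMSO, SCR AAI, siB DMSO and siB AAI, held 3 replicates each, 12 libraries in all. All libraries therefore came from 1 transfected cell line, and no group was left untransfected.

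MYC proteins are transcription factors that bind DNA as a pair with MAX and raise genes for growth, ribosome production and the cell cycle. MXI1 (also called MXD2), MXD1, MXD3, MXD4 and MNT also need MAX, occupy the same DNA element, the E-box CACGTG, and recruit corepressors that lower those genes. MLX is a parallel hub that pairs with the glucose-sensing factors MLXIP and MLXIPL, and with MXD1, MXD4 and MNT. MYC RNA and protein are short-lived, so MYC is known to follow changes in transcription closely.

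The E-box is the element on which the network acts, so the network's own promoters were searched for it. RefSeq promoter windows of 300 bases, from 250 before to 50 after an annotated start (GRCh38.p14), were at hand for 9 of the 10 genes (all but MYC), in 12 windows, because MXI1 and MAX have several starts. The letters CACGTG, which read the same on both strands, were found in the windows of 3 genes, MXD4, MNT and MLX. Of 35116 windows of this length over all genes, 2548 (7.26%) held CACGTG. The upstream stretch of each of the 3 windows is shown 5′ to 3′ on the strand of the gene, with the E-box in capitals, since these are the members whose own promoter carries the network's element.
MXD4 (chr4:2262154-2262359, minus strand, E-box from 238 bases before the start): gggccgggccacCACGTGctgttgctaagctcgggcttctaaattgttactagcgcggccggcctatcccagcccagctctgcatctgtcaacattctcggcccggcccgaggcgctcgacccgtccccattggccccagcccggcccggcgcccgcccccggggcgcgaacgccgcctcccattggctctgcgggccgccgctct
MNT (chr17:2401105-2401310, minus strand, E-box from 193 bases before the start): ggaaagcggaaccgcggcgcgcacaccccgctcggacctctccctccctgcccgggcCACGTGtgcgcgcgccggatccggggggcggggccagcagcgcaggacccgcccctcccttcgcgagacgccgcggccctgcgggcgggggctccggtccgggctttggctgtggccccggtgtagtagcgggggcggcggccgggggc
MLX (chr17:42566850-42567055, plus strand, E-box from 50 bases before the start): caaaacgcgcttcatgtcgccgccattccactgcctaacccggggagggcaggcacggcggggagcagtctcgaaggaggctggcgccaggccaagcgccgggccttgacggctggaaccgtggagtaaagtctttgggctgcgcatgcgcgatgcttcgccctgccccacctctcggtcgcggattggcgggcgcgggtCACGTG
A match describes these letters only and does not show that any factor was bound.

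Depth ran from 15844015 to 42805294 reads per library. Levels are given as counts scaled to a library total of 1000000 (CPM), and by median-ratio size factors SCR DMSO replicate 2 stood apart, at 0.768 of what its depth gave against 0.945 to 1.11 in the other 11 libraries. POLR2A, the knockdown target, had 258, 288 and 306 CPM in the SCR DMSO libraries (replicates 1, 2 and 3, the order used throughout) and 673, 719 and 729 CPM with AAI. In the siB cells it had 138, 143 and 139 CPM with DMSO and 266, 220.4 and 210.3 CPM with AAI. Every siB library was below every SCR library of the same treatment, and siB AAI lay near SCR DMSO. Of 18 proximal tubule and epithelial markers, 10 were at 1 CPM or more in all 12 libraries, and the 18 summed to 2016 to 2605 CPM in SCR DMSO, 1774 to 2031 in SCR AAI, 2176 to 2334 in siB DMSO and 1615 to 1697 in siB AAI. Of 17 markers of other cell types, 1 reached 1 CPM in all 12 libraries, 1 was at 0 in all 12, and the 17 summed to 25.9 to 57.9 CPM.

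MYC and MXD4 had the highest levels of the network. To compare genes, CPM was divided by the length of the canonical transcript in kb. MYC, on chromosome 8, averaged 58.5 CPM per kb over the 12 libraries, followed by MXD4 at 40.9, MXD3 at 22.7 and MAX, the shared partner, at 17.8 CPM per kb. Below these came MLX at 10.9, MNT at 8.35, MXI1 at 6.47, MXD1 at 3.28 and MYCL, a MYC relative, at 1.86 CPM per kb. Neighbours in this order overlapped in their ranges over the libraries, except MYCL and MYCN. The order of neighbours held in 8 to 12 of the 12 libraries, with MXD3 above MAX and MXD1 above MYCL in 8 each.

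MYCN, the MYC relative best known from neural and embryonic tissue (chromosome 2, 15940550 to 15947007, plus strand, hg38), had 0 reads in all 12 libraries. A count of 0 allows 3 reads, or 0.0701 to 0.189 CPM according to the library, for counting error only. MYCN was not tested further, and each count below is over the other 9 genes.

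In siB cells, AAI went with a broad shift in the network. MYC, MYCL, MXI1, MLX, MXD3, MNT and MXD4 fell, MXD1 rose, and MAX did not pass the test. On the log2(CPM + 1) scale MYC, MYCL and MXI1 were at least 2-fold lower, and with a pseudocount of 0.1 this size was also reached by MLX (lower) and MXD1 (higher), 5 genes in all. Thus 8 of 9 genes passed at an adjusted p under 0.05 in limma, 7 lower and 1 higher. Over the 14928 genes tested, 52.2% passed in either direction, 30.4% higher and 21.8% lower, and 5.79% passed and were at least 2-fold lower. The groups did not overlap for 8 of the 9 genes, against 60.8% of all genes tested. The median log2 change was -0.64 over the 9 genes and 0.10 over all genes tested. MXD4, MNT and MLX, whose E-box stretches are shown above, were among the 7 that fell, as were MYCL, MXI1 and MXD3, whose windows lack these letters. In bulk RNA, fewer cells that express a gene and less of its RNA per cell cannot be told apart. The summed epithelial markers were also lowest in siB AAI (1615 to 1697 CPM against 2176 to 2334 CPM in siB DMSO), but they moved both ways. Of the 18, 12 passed the filter on low values, of which 16.7% rose and 50% fell, against 30.4% and 21.8% of all genes. ANPEP passed this filter only through siB AAI (2.25 to 4.17 CPM, against 0.0902 to 0.128 CPM in siB DMSO). A rise of ANPEP was therefore close to built in. KRT19 fell from 272 ± 22.9 to 87.2 ± 21.6 CPM, and SLC5A2 rose from 5.11 ± 1.71 to 16.8 ± 4.23 CPM. The part of these markers in the results was not tested. Of the 17 markers of other cell types 6 passed the filter on low values, of which 3 rose and 1 fell. SLC12A3 and PTPRC were under 1 CPM in every siB DMSO library and passed this filter only through siB AAI. Their rise was therefore close to built in. SLC12A3, the salt transporter of the distal tubule, rose from 0.0764 ± 0.0452 to 5.43 ± 1.21 CPM, PECAM1 of endothelium from 1.13 ± 0.13 to 4.65 ± 1.14 CPM, and PTPRC of leukocytes from 0.485 ± 0.235 to 2.70 ± 0.193 CPM. COL1A1 of fibroblasts fell from 30.0 ± 1.85 to 12.1 ± 6.78 CPM. The 17 summed to 35.4 to 38.1 CPM in siB DMSO and 31.1 to 43.4 CPM in siB AAI, and their part was not tested either.

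MYC was at 265, 301 and 281 CPM in siB DMSO and at 93.6, 131 and 144 CPM in siB AAI. The highest AAI library was below the lowest DMSO library by a wide margin, and the mean went from 282 ± 17.8 to 123 ± 26.3 CPM (SD, n = 3), a ratio of 0.436. The log2 change was -1.21 (SE 0.15, adjusted p 2.0e-04, limma). MYCL (chromosome 1, 39895428 to 39902256, minus strand), another partner of MAX, stood at 9.06, 9.24 and 7.86 CPM in DMSO and at 3.28, 2.82 and 3.05 CPM in AAI. All 3 AAI libraries were within a narrow band far under the DMSO libraries, at a log2 change of -1.26 (SE 0.16, adjusted p 2.0e-04, limma).

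Among the repressors that compete for MAX, MXI1 (chromosome 10, 110207605 to 110287365, plus strand) went from 34.6, 28.2 and 27.4 CPM in siB DMSO to 15.3, 13.1 and 12.4 CPM in siB AAI. The groups were well separated, with a log2 change of -1.09 (SE 0.15, adjusted p 3.4e-04, limma). MXD1 (chromosome 2, 69897688 to 69942945, plus strand), the repressor classically induced as cells leave the cycle and differentiate, moved the other way. It was at 11.3, 9.56 and 9.65 CPM in DMSO and at 26.2, 17.4 and 18.9 CPM in AAI, a log2 change of 0.95 (SE 0.18, adjusted p 0.00191, limma). Every AAI library exceeded every DMSO library, and MXD1 was the single member that rose.

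MXD3 (chromosome 5, 177301461 to 177312757, minus strand), a repressor linked to S phase, was at 27.8, 26.8 and 34.2 CPM in siB DMSO and at 21.0, 16.1 and 18.6 CPM in siB AAI. Its log2 change was -0.64 (SE 0.16, adjusted p 0.00683, limma). MXD4 (chromosome 4, 2247432 to 2262109, minus strand) was at 161, 186 and 206 CPM in DMSO and at 156, 119 and 138 CPM in AAI, with the nearest libraries of the groups almost touching. Its log2 change of -0.42 (SE 0.13, adjusted p 0.0246, limma) passed in this fit but missed the threshold when all 4 groups were fitted together (adjusted p 0.167) and without replicate 2 or 3 of siB DMSO (0.0724 and 0.110) or of siB AAI (0.0867 and 0.0655). MXD3 missed it in the fit of all 4 groups (adjusted p 0.125).

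MNT (chromosome 17, 2384073 to 2401104, minus strand), the repressor that most dividing cells express, was at 49.9, 56.9 and 49.0 CPM in siB DMSO and at 34.8, 35.4 and 37.6 CPM in siB AAI, a log2 change of -0.52 (SE 0.12, adjusted p 0.00489, limma). The DMSO level in siB cells was the highest of any group. MLX (chromosome 17, 42567072 to 42573239, plus strand) went from 32.8, 34.7 and 33.3 CPM to 16.8, 16.6 and 16.8 CPM. Its replicates lay close together, at 33.6 ± 0.986 and 16.7 ± 0.14 CPM, and its log2 change was -0.96 (SE 0.12, adjusted p 1.9e-04, limma). MAX (chromosome 14, 65006174 to 65102695, minus strand) was at 34.2, 35.4 and 31.2 CPM in DMSO and at 30.2, 28.2 and 35.7 CPM in AAI. These groups overlapped, with a log2 change of -0.10 (SE 0.13, adjusted p 0.544, limma).

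**Figure D1:**
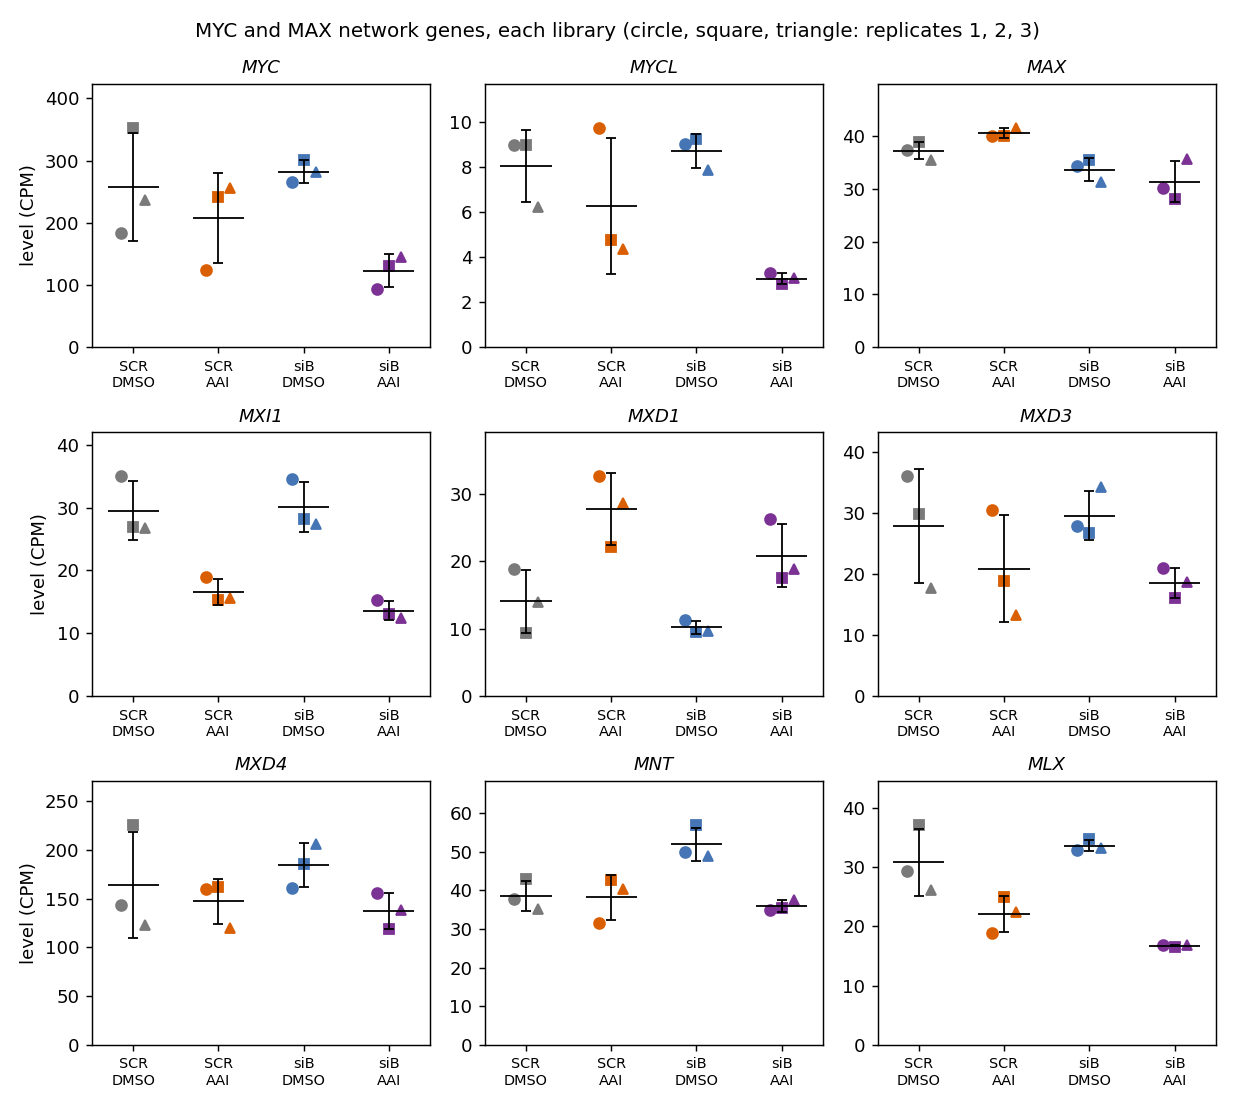
Level of each of the 9 detected genes in CPM (vertical axes, linear from 0) in every library of the 4 groups, with circle, square and triangle for replicates 1, 2 and 3 and with the mean and SD as lines. MYC sat between 93.6 and 144 CPM in siB AAI, under all siB DMSO libraries (265 to 301 CPM), while its SCR libraries spread from 124 to 353 CPM.

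In SCR cells, which keep their POLR2A, AAI gave values that leaned lower for 7 of the 9 genes, but no member passed the test. Of the 9 genes, 0 passed in limma at an adjusted p under 0.05 and 2 (MXI1 and MXD1) had an unadjusted p under 0.05. Voom in limma on whole reads recovered from the table also passed 0. Over the 14228 genes tested 12.3% passed, 8.98% higher and 3.36% lower. The groups did not overlap for 4 of the 9 genes (MAX, MXI1, MXD1 and MLX), against 33.8% of all genes tested. The median log2 change was -0.33 over the 9 genes and 0.18 over all genes. With median-ratio size factors in place of CPM the median of all genes was -0.01, and that of the 9 genes -0.54. Without SCR DMSO replicate 2, the library that stood apart in size factor, 5 of the 9 were lower and 4 higher. Their median there was -0.08, against 0.06 for all genes.

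MXI1 was at 35.0, 26.8 and 26.7 CPM in SCR DMSO and at 18.9, 15.3 and 15.6 CPM in SCR AAI. The groups were apart, and the log2 difference was -0.79 (SE 0.24, adjusted p 0.0762, limma). MXD1 was at 18.8, 9.37 and 13.9 CPM in DMSO and at 32.6, 22.1 and 28.6 CPM in AAI, with all AAI libraries above all DMSO libraries and a log2 difference of 0.97 (SE 0.31, adjusted p 0.0885, limma). In these groups same-numbered libraries deviated together, and with the replicate number as a block MXI1 fell (adjusted p 0.0370, limma) and MXD1 rose (adjusted p 0.0222, limma), against 21.1% of all genes passing in that fit. Within replicates 1, 2 and 3 the log2 difference was -0.85, -0.77 and -0.74 for MXI1 and 0.76, 1.15 and 0.99 for MXD1, so each pair moved by a like amount. MXI1 also passed without SCR DMSO replicate 2 (adjusted p 0.0299) and with median-ratio size factors (0.0297), and MXD1 without SCR DMSO replicate 1 (0.0487).

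MYC was much more variable in SCR cells. It was at 184, 353 and 237 CPM in SCR DMSO and at 124, 242 and 255 CPM in SCR AAI, so the groups overlapped, at a log2 difference of -0.33 (SE 0.35, adjusted p 0.584, limma; 0.285 with the block). Within replicates the log2 difference was -0.57, -0.54 and 0.11. MYCL was at 9.01, 8.99 and 6.21 CPM in DMSO and at 9.77, 4.76 and 4.35 CPM in AAI, with replicate 1 of AAI above all DMSO libraries. Its log2 difference was -0.37 (SE 0.34, adjusted p 0.517, limma). MLX was at 29.3, 37.1 and 26.1 CPM and at 18.9, 24.9 and 22.5 CPM, apart but short of the threshold at a log2 difference of -0.46 (SE 0.25, adjusted p 0.287, limma; 0.170 with the block). Within replicates its log2 difference was -0.61, -0.55 and -0.21.

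The other repressors and MAX did not pass between these groups. MXD3 was at 36.0, 29.8 and 17.6 CPM in SCR DMSO and at 30.6, 18.9 and 13.3 CPM in SCR AAI, a log2 difference of -0.42 (SE 0.38), with -0.23, -0.63 and -0.39 within replicates. MXD4 was at 143, 226 and 123 CPM and at 159.7, 162 and 120.3 CPM, a log2 difference of -0.12 (SE 0.27). MNT was at 37.7, 42.9 and 35.0 CPM and at 31.6, 42.7 and 40.3 CPM, a log2 difference of -0.02 (SE 0.23). These 3 genes overlapped between the groups. MAX was at 37.4, 38.9 and 35.5 CPM and at 40.1, 40.1 and 41.6 CPM, a log2 difference of 0.12 (SE 0.20) that was -0.078 with median-ratio size factors.

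**Figure D2:**
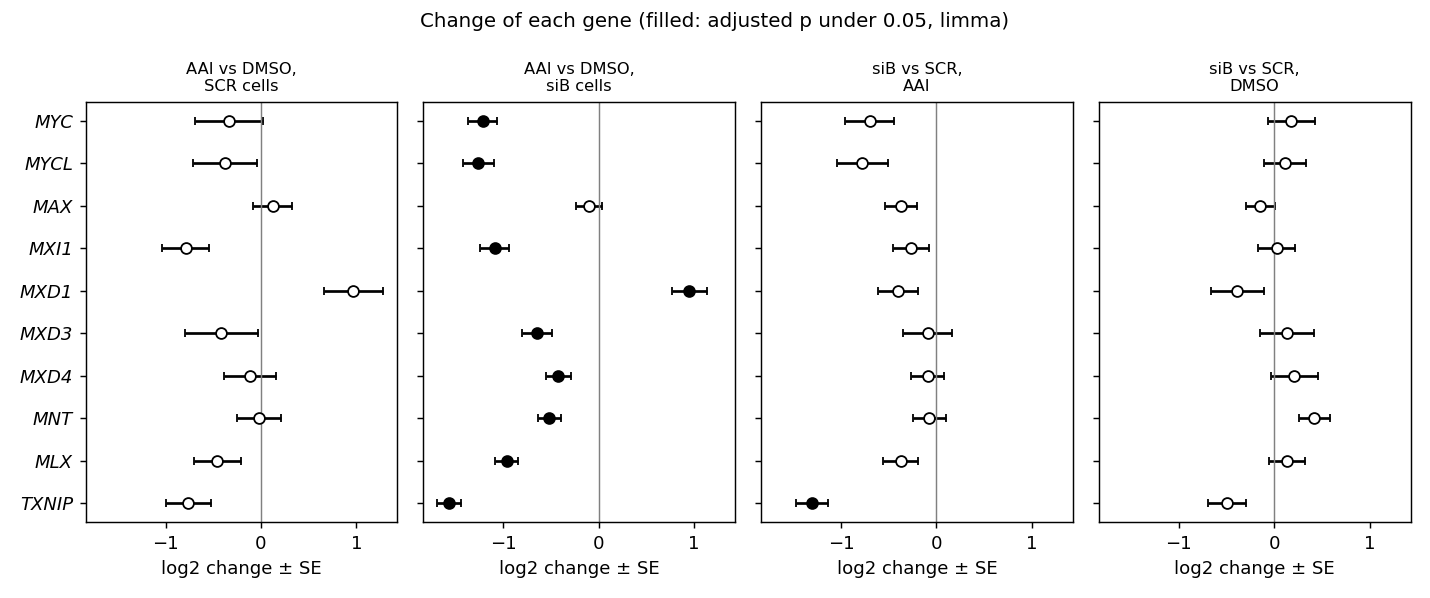
Log2 change (horizontal axes) with its SE from limma for the 9 detected genes and for TXNIP, a target of MLX, in the 4 comparisons. Filled circles passed at an adjusted p under 0.05, which was the case for 8 of the 9 genes in siB cells given AAI and for none of the 9 elsewhere.

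Whether the response to AAI differed between siB and SCR cells was tested directly as an interaction over the 4 groups. The log2 interaction was below 0 for 9 of 9 genes, but 0 passed in limma, and 2 (MYCL and MNT) had an unadjusted p under 0.05. Of the 15325 genes tested, 1.61% passed. Voom in limma passed 0 of the 9 and 0 of all 15325 genes. For MYC the interaction was -0.88 (SE 0.42, adjusted p 0.397), for MYCL -0.89 (SE 0.37, 0.309), for MNT -0.50 (SE 0.22, 0.359) and for MLX -0.51 (SE 0.24, 0.396). For MXD1 it was -0.02 (SE 0.36, 0.996). The larger number of members that passed in siB cells is thus not shown to be a difference between siB and SCR cells.

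Under AAI, all 9 detected members were lower on average in siB than in SCR cells, and again 0 of 9 passed in limma without a block. An unadjusted p under 0.05 was found for 3 genes (MYC, MYCL and MAX), and voom in limma passed 0. Of the 14946 genes tested 9.28% passed, 5.49% higher and 3.79% lower. The groups did not overlap for 3 of the 9 genes (MYCL, MAX and MLX), against 30.8% of all genes. The siB AAI libraries are the same ones that enter the comparison with siB DMSO, and the SCR AAI libraries enter the comparison with SCR DMSO, so these results are not independent.

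With the values given above, MYC averaged 207 ± 72.5 CPM in the SCR and 123 ± 26.3 CPM in the siB cells (SD, n = 3), a ratio of 0.594. The log2 difference was -0.70 (SE 0.26, adjusted p 0.110, limma). Replicate 1 of SCR AAI, at 124 CPM, lay inside the siB AAI range, and without it the log2 difference was -1.03 (adjusted p 8.7e-04). MYCL averaged 6.29 ± 3.02 CPM and 3.05 ± 0.233 CPM, with every siB library below every SCR library and a log2 difference of -0.77 (SE 0.27, adjusted p 0.0884, limma). MAX averaged 40.6 ± 0.892 and 31.4 ± 3.93 CPM, also without overlap, at a log2 difference of -0.37 (SE 0.17, adjusted p 0.186, limma).

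Same-numbered libraries deviated together in these 2 groups as well, though replicates 2 and 3 did so nearly as much across numbers. With the replicate number as a block MYC (adjusted p 2.4e-05), MYCL (7.0e-04) and MXD1 (0.0449) were lower in siB cells in limma, 3 of 9 genes, against 28.9% of all genes passing in that fit. The blocked fit had 2 residual degrees of freedom and an infinite prior, so its p-values rest on a spread shared by genes of like level and are smaller than the replicates of 1 gene could give. Within replicates the log2 difference of MYC was -0.40, -0.88 and -0.82, that of MYCL -1.33, -0.59 and -0.40, and that of MXD1 -0.30, -0.32 and -0.57. These genes were picked by a fit on the same pairs, so their shared direction within replicates adds no support. MAX, MXI1 and MLX, which did not pass with the block, also had the siB library lower in each pair. MLX (log2 -0.37, adjusted p 0.218, 0.0706 with the block) and MXI1 (-0.27, 0.406) did not pass either way. MXD3, MXD4 and MNT were between -0.09 and -0.08.

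In DMSO, no member passed between siB and SCR cells. Of the 9 genes 0 passed in limma, as did 0 of all 13606 genes tested (0%), with 1 gene, MNT, at an unadjusted p under 0.05, and voom in limma also passed 0. MNT was higher in every siB library than in any SCR library, at a log2 difference of 0.42 (SE 0.16, adjusted p 1.0, limma). MAX did not overlap between the groups either, at -0.15 (SE 0.15), so 2 of 9 genes were apart against 11.9% of all genes tested. The log2 difference was 0.18 (SE 0.25) for MYC and 0.11 (SE 0.22) for MYCL, and it ran from -0.38 for MXD1 to 0.21 for MXD4 among the rest. POLR2A itself, at a log2 difference of -1.01 (SE 0.13, adjusted p 0.505, limma), did not pass here although every siB library was below every SCR library, and it passed when all 4 groups were fitted together (adjusted p 0.0271).

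Some members were ordered by replicate number in every group, as were many genes outside the network. MYC was lowest in replicate 1 in 4 of 4 groups, whereas MXI1 and MXD1 were highest in replicate 1 in 4 of 4 groups, and MXD1 was lowest in replicate 2 in 4 of 4. Over the 15325 genes past the filter on the 12 libraries, 5.38% were lowest in replicate 1 in all 4 groups and 17.2% highest, and 7.69% were lowest in replicate 2. The numbers are not described as a culture day or batch in the labels.

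The balance between MYC and the repressors that share MAX was described per library as the log2 ratio of MYC to the sum of MXI1, MXD1, MXD3, MXD4 and MNT, each in CPM per kb, with no test. It was -0.89, -0.14 and -0.04 in SCR DMSO and -1.40, -0.23 and 0.16 in SCR AAI, so that these groups overlapped. In siB DMSO it was -0.33, -0.23 and -0.47, and in siB AAI it was -1.60, -0.76 and -0.81. The siB AAI libraries lay below all siB DMSO libraries, with means of -1.06 ± 0.47 and -0.35 ± 0.12 (SD, n = 3), while replicate 1 of either SCR group lay inside the siB AAI range. In siB cells MYC was thus lower against the summed repressors with AAI than with DMSO.

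**Figure D3:**
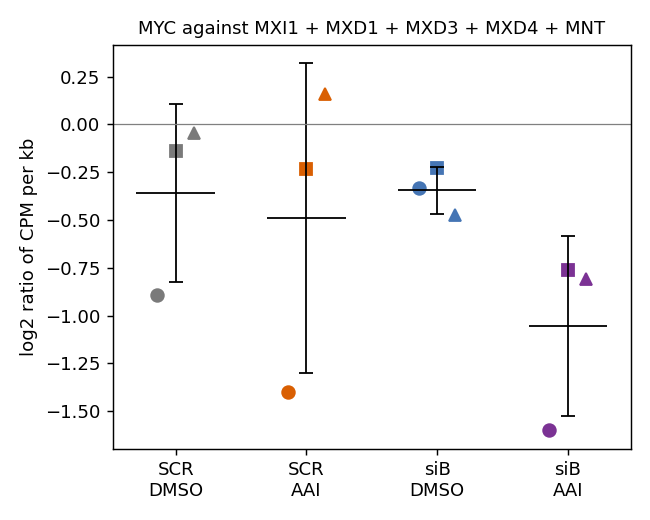
Log2 ratio of MYC to the sum of 5 repressors, in CPM per kb (vertical axis), in each library of the 4 groups, with the mean and SD as lines and with circle, square and triangle for replicates 1, 2 and 3. The siB AAI libraries lie between -1.60 and -0.76, and replicate 1 (circle) is lowest in every group but siB DMSO.

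MLX acts with MLXIP on TXNIP, which encodes an inhibitor of thioredoxin and of glucose uptake, and on its relative ARRDC4. TXNIP (chromosome 1, 145992435 to 145996579, minus strand) was at 127, 134 and 126 CPM in siB DMSO and at 36.6, 47.0 and 45.5 CPM in siB AAI. It fell to a ratio of 0.334, a log2 change of -1.57 (SE 0.12, adjusted p 1.2e-05, limma), in the same libraries in which MLX fell. In SCR cells TXNIP was at 239.9, 159 and 157 CPM in DMSO and at 106, 94.4 and 122 CPM in AAI, apart but short of the threshold at a log2 difference of -0.76 (SE 0.24, adjusted p 0.0802, limma), and it fell with the block (adjusted p 0.0403). Under AAI it was lower in siB than in SCR cells, at a log2 difference of -1.30 (SE 0.17, adjusted p 0.00151, limma), and the interaction did not pass (-0.81, SE 0.26, adjusted p 0.172).

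ARRDC4 (chromosome 15, 97960703 to 97973833, plus strand) did not go along with TXNIP under AAI. It was at 4.83, 3.74 and 3.46 CPM in siB DMSO and at 2.84, 4.11 and 3.80 CPM in siB AAI, overlapping at a log2 difference of -0.13 (SE 0.19, adjusted p 0.591, limma). In SCR cells it spread from 2.90 to 7.16 CPM in DMSO and from 4.58 to 8.46 CPM in AAI, a log2 difference of 0.19 (SE 0.36). Under AAI all siB libraries were below all SCR libraries, at -0.59 (SE 0.24, adjusted p 0.152, 0.0119 with the block, limma). MLXIP, the partner of MLX, rose in siB cells given AAI, from 183 ± 5.20 to 371 ± 48.7 CPM (log2 change 1.003, SE 0.11, adjusted p 9.6e-05, limma). MLX and its partner therefore moved in opposite directions in those libraries.

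**Figure D4:**
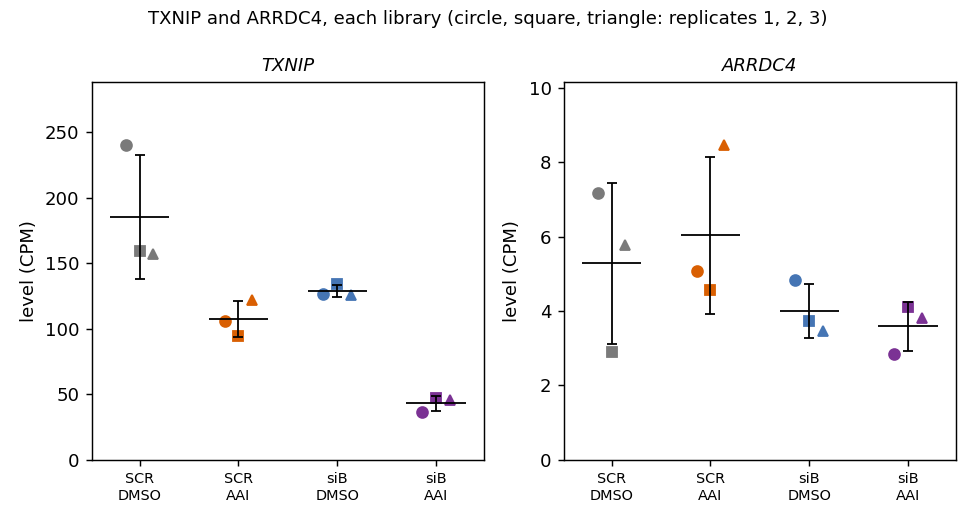
Levels of TXNIP and ARRDC4 in CPM (vertical axes, linear from 0) in every library, with the mean and SD as lines and with circle, square and triangle for replicates 1, 2 and 3. TXNIP sat between 36.6 and 47.0 CPM in siB AAI, below the libraries of every other group, while the ARRDC4 values of siB DMSO and siB AAI overlapped.

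Of 6 further partners of the network (MGA, MLXIP, MLXIPL, ZBTB17, MYCBP and MYCBP2), 4 rose and 0 fell in siB cells given AAI, against 30.4% of all genes higher and 21.8% lower, with a median log2 change of 0.47 against 0.10 for all genes. With median-ratio size factors, and without siB DMSO replicate 2 or 3, 2 rose and 0 fell. MYCBP2, a large ubiquitin ligase that binds MYC, rose from 38.3 ± 16.6 to 86.2 ± 7.45 CPM (log2 change 1.22, SE 0.24, adjusted p 0.00234, limma). In SCR cells 0 of the 6 passed in limma (2 at an unadjusted p under 0.05), against 12.3% of all genes. Their median log2 difference there was also 0.48, against 0.18 for all genes.

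Of 20 coactivators and corepressors of MYC and its rivals, 2 rose (10%) and 5 fell (25%) in siB cells given AAI, with a median of -0.09. The share that fell was near the 21.8% of all genes and the share that rose was below the 30.4%, and without siB DMSO replicate 1 5 rose. KAT5, the TIP60 histone acetyltransferase, fell from 22.0 ± 0.657 to 7.98 ± 2.04 CPM (log2 change -1.38, SE 0.19, adjusted p 2.7e-04, limma). CCNT1, the cyclin T1 subunit of the elongation kinase P-TEFb, rose from 51.3 ± 9.51 to 119 ± 10.1 CPM (log2 change 1.21, SE 0.14, adjusted p 1.3e-04, limma), while its kinase CDK9 fell (log2 change -0.85). The others that passed were EP400 (0.45), RUVBL2 (-0.99), PAF1 (-0.65) and SMARCB1 (-0.61). Under AAI, KAT5 (-1.49, adjusted p 0.00512) and SMARCB1 (-0.63) were lower in siB than in SCR cells, 2 of 20 against 3.79% of all genes, and 0 to 3 were lower with a library left out (0 without SCR AAI replicate 3). In SCR cells 0 of the 20 passed in limma (2 at an unadjusted p under 0.05), against 12.3% of all genes.

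Genes that control MYC RNA or protein moved both ways. Of 25 tested in siB cells given AAI, 6 rose (24%) and 9 fell (36%), against 30.4% and 21.8% of all genes, with a median of -0.12. With median-ratio size factors 3 rose and 10 fell. The number that rose was 2 without siB AAI replicate 3 or siB DMSO replicate 2 or 3, 4 without siB AAI replicate 1 and 8 without siB DMSO replicate 1, while 8 to 9 fell. AURKA, the mitotic kinase that shields MYCN and MYC from degradation, fell from 147 ± 3.73 to 58.3 ± 6.97 CPM (log2 change -1.32, SE 0.12, adjusted p 2.3e-05, limma). PIM1, a kinase that phosphorylates MYC, fell from 74.0 ± 6.30 to 35.3 ± 1.34 CPM (-1.04, SE 0.11), and TRIM32, a ubiquitin ligase for MYC, fell from 31.9 ± 0.940 to 15.1 ± 1.61 CPM (-1.04, SE 0.14). In SCR cells AURKA alone passed, 1 of 25 against 12.3% of all genes. It fell from 169 ± 19.5 to 73.9 ± 11.7 CPM (log2 change -1.19, SE 0.21, adjusted p 0.0100, limma). It missed the threshold without SCR AAI replicate 2 or SCR DMSO replicate 3, which left 0 of the 25, and without SCR DMSO replicate 2 there were 4 that rose and 2 that fell. Under AAI, 5 of the 25 were lower in siB than in SCR cells and 0 were higher, against 3.79% and 5.49% of all genes. The 5 became 0 without SCR AAI replicate 3, 1 without siB AAI replicate 2 or 3 and 2 without siB AAI replicate 1. They were TRIM32 (-0.87, adjusted p 0.0126), FUBP1 (-0.81, 0.0121), CTCF (-0.67), STUB1 (-0.65) and PIM1 (-0.60, 0.0309). FUBP1, which binds the far upstream element of MYC and helps to activate it, averaged 126 ± 19.9 CPM in the SCR and 70.9 ± 6.45 CPM in the siB cells.

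Targets that MYC raises moved both ways. Of 64 tested in siB cells given AAI, 14 rose (21.9%) and 11 fell (17.2%), both below the shares of all genes (30.4% and 21.8%), and their median log2 change was 0.15 against 0.10 for all genes. With median-ratio size factors 10 rose and 13 fell. With a library left out 7 to 21 rose and 8 to 12 fell, with 7 and 9 rising without siB AAI replicates 3 and 2, 9 without siB DMSO replicate 2 or 3 and 21 without siB DMSO replicate 1. TFRC, the transferrin receptor, rose from 182 ± 23.3 to 554 ± 58.3 CPM (log2 change 1.60, SE 0.12, adjusted p 1.1e-05, limma). NOP2, NPM1, ODC1 and TFAM, which serve ribosome production, polyamine synthesis and mitochondrial DNA, rose as well (log2 changes 0.67, 0.33, 0.62 and 0.80). PLK1, a mitotic kinase, fell from 147 ± 11.3 to 58.4 ± 5.73 CPM (-1.31, SE 0.12, adjusted p 2.4e-05, limma), CCND2, a cyclin of G1, fell from 20.8 ± 0.431 to 8.01 ± 1.95 CPM (-1.30, SE 0.18), and PPAN, a ribosome assembly factor, fell from 29.7 ± 1.42 to 11.7 ± 2.30 CPM (-1.29, SE 0.17).

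In SCR cells 49 of 64 such targets had a log2 difference above 0. Their median was 0.42 against 0.18 for all genes (0.22 against -0.01 with median-ratio size factors). Of the 64, 3 rose (TFRC 0.97, TBRG4 0.95 and NOP2 0.85) and 1 fell (PLK1 -1.02). These shares, 4.69% and 1.56%, were below the 8.98% and 3.36% of all genes. With median-ratio size factors 0 of the targets rose and 2 fell. With a library left out 0 to 12 rose (12 without SCR DMSO replicate 2, 0 or 1 otherwise) and 0 to 2 fell. Without SCR DMSO replicate 1, 44 of 64 were above 0, at a median of 0.260 against 0.262 for all genes. Under AAI 46 of 65 were lower on average in siB than in SCR cells, at a median of -0.14 against 0.002 for all genes. Of the 65, 2 passed, PPAN (-0.82, adjusted p 0.0472, limma) and AIMP2 (-0.67, adjusted p 0.0484, limma), 3.08% lower against 3.79% of all genes. Both missed the threshold with median-ratio size factors and without any 1 library other than SCR AAI replicate 1, where 6 were lower. Among all 65, 1 was higher with median-ratio size factors or without SCR AAI replicate 1, and 1 was lower without SCR AAI replicate 2. With the block 4 were higher and 10 lower, against 28.9% of all genes passing in either direction. Without siB AAI replicate 1, 34 of 65 were lower on average, at a median of -0.046 against -0.031 for all genes. The interaction was below 0 for 54 of 65, at a median of -0.21 against -0.06 for all genes. Of the 65, 0 passed in limma (2 at an unadjusted p under 0.05), against 1.61% of all genes. Without SCR DMSO replicate 1 the median interaction of the targets was -0.115, against -0.160 for all genes.

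Targets that MYC lowers also moved both ways, with more lower. Of 11 tested in siB cells given AAI, 2 rose and 7 fell, against 30.4% and 21.8% of all genes, with a median of -0.47, and with a library left out 2 rose and 6 to 8 fell. NDRG1, a stress and differentiation gene, fell from 248 ± 28.8 to 92.6 ± 16.5 CPM (log2 change -1.42, SE 0.15, adjusted p 6.6e-05, limma), and CDKN1C, the cell cycle inhibitor p57, fell from 70.9 ± 13.9 to 31.2 ± 2.53 CPM (-1.14, SE 0.16, adjusted p 3.4e-04, limma). CDKN2B, the inhibitor p15, rose from 16.0 ± 2.48 to 35.6 ± 15.4 CPM (1.04, SE 0.26, adjusted p 0.00813, limma), and GADD45A rose by 0.51. The interaction passed for CDKN1C (-1.43, SE 0.31, adjusted p 0.0390, limma), which averaged 63.2 CPM with DMSO and 76.6 CPM with AAI in SCR cells, and for CEBPA (-1.98, SE 0.33, adjusted p 0.0134, limma). This was 2 of the 11, against 1.61% of all 15325 genes tested. CEBPA, a differentiation factor, averaged 15.6 ± 2.31 CPM in SCR cells with DMSO and 36.1 ± 11.2 CPM with AAI, and in siB cells 38.3 ± 4.12 CPM with DMSO and 20.7 ± 2.65 CPM with AAI. These 2 interactions depended on the fit. Voom passed 0 of the 11 but also 0 of all 15325 genes. Median-ratio size factors passed 1 of the 11, and leaving out siB DMSO replicate 2 passed 0. Any other single library left out passed 1 or 2, except SCR DMSO replicate 2, with 3. Under AAI, CDKN1C (-1.25) and CEBPD (-1.25) were lower in siB than in SCR cells and NDRG1 (0.85) was higher, against 3.79% and 5.49% of all genes. Of the 11, 0 were higher without SCR AAI replicate 3 or siB AAI replicate 3.

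The replicate block moved several of these counts. In SCR cells given AAI it gave 2 higher and 0 lower of the 6 partners, 1 and 0 of the 20 cofactors, 2 and 1 of the 25 genes that control MYC, 7 and 3 of the 64 targets that MYC raises, and 3 and 1 of the 11 that MYC lowers. In that fit 21.1% of all genes passed in either direction. Between siB and SCR cells in AAI the block gave 1 and 1 of the partners, 0 and 5 of the cofactors, 0 and 6 of the controlling genes, and 2 and 3 of the targets that MYC lowers. There 28.9% of all genes passed in either direction.

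Some members share their place with other genes, and whether the authors' counting used strand is not given in the sources used here. MLX overlaps PSMC3IP on the opposite strand, and PSMC3IP rose with AAI in siB cells, from 21.2 ± 3.77 to 60.5 ± 14.7 CPM (log2 change 1.45, SE 0.19, adjusted p 2.2e-04, limma), and in SCR cells, from 21.1 ± 8.10 to 64.6 ± 22.7 CPM (1.58, SE 0.36, adjusted p 0.0276, limma). MLX had lower values in AAI in both, the opposite direction. COASY, which ends 795 bases before MLX on the same strand, was at 109 ± 8.31 CPM in siB cells without AAI and 99.99 ± 10.3 CPM with it and did not pass. MXD3 overlaps RAB24 on the same strand, and RAB24 fell in siB cells given AAI, from 18.1 ± 1.17 to 7.56 ± 0.704 CPM (-1.16, SE 0.15, adjusted p 2.1e-04, limma), so the fall of MXD3 is uncertain to the extent that reads of RAB24 were counted to it. MXD1 overlaps SNRNP27 on the same strand, which averaged 28.7 ± 3.61 CPM in siB cells without AAI and 36.9 ± 4.64 CPM with it (0.35, SE 0.15, adjusted p 0.0673, limma), and the part of its reads in the rise of MXD1 was not tested.

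Genes with a course most like that of MYC were sought by Pearson's r of log2(CPM + 1) over the 12 libraries, among 11581 genes with a mean of at least 5 CPM. Among the 3 closest were PPAN (0.964), named above, and EARS2 (0.963), the mitochondrial glutamyl-tRNA synthetase. For MXI1 they were SQLE (0.977), the squalene epoxidase of cholesterol synthesis, IDH1 (0.976), the cytosolic isocitrate dehydrogenase, and PECR (0.974), a peroxisomal reductase. The libraries share the group and replicate structure described above, and the values are a description.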

How the data were processed

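RNA-seq values of 12 HK-2 libraries were analysed. Per the study's methods, paired-end reads were aligned to hg38 and summed by gene (UCSC annotation) through BioJupies, and pairs of groups were compared with limma. The aligner and the strand setting are not given in the sources used here. The authors deposited a log10 table. Undoing the log10 and taking 1 off gave values that add up to 1000000 per library, that is CPM stored as log10(CPM + 1), and 100% of them were whole multiples of 1 read (tolerance 0.02), so CPM and reads could be recovered. A total of 28 genes carry dates as names. They were tested but are not named.

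Groups were taken from the sample titles, because the labels' treatment entry is DMSO in all samples. Column names gave the siRNA, the first letter of AAI or DMSO and the replicate number. Nothing in the labels says that replicates were separate cultures, so p-values measure the spread between these samples only.

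Tests used limma 3.58.1 in R 4.3.3 (eBayes with trend) on log2(CPM + 1), pseudocount 1, with separate fits per pair of groups, over genes with at least 1 CPM in at least 3 libraries fitted. Every adjusted p is from limma, Benjamini-Hochberg over all genes tested, and a gene passed at an adjusted p under 0.05. Fold changes on this scale understate those of genes with low values. The interaction used all 4 groups. The script was tested on simulated data. Because the unit was a log scale, voom on the recovered reads was an alternative, beside a pseudocount of 0.1, no filter, a mean of at least 5 CPM, median-ratio size factors, no trend, a replicate block, a joint fit of the 4 groups and leaving out each library.

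Replicate numbers come from the titles. Deviations from the group mean, over 15325 genes, correlated between libraries of the same number at 0.42, 0.47 and 0.34 between SCR DMSO and SCR AAI and at 0.61, 0.32 and 0.29 between SCR AAI and siB AAI, so the block is given beside these comparisons. In the last pair of groups, SCR AAI replicate 2 with siB AAI replicate 3 reached 0.215, and replicate 3 with replicate 2 reached 0.224. Only replicate 1 was thus clearly matched by number there.

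The members, lists and tests were chosen with earlier results of these data known. The named genes were the members, TXNIP, ARRDC4 and POLR2A, up to 4 genes per list and comparison with the largest change of at least 2-fold and a mean of at least 5 CPM (otherwise up to 2 that passed), the 3 genes most correlated with MYC and with MXI1, and neighbours or overlapping genes of members. Other list genes named were chosen after their values were seen. For 1 of the named genes no value is given. PVT1 was not matched in the table. Spans and transcript lengths came from GENCODE release 44 (hg38) by symbol, and promoter windows from RefSeq. Limits from counts cover counting error only, as PCR copies are not independent.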

Additional observations from a re-analysis of the deposited data

How the results depend on the processing

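The number of members that passed for AAI against DMSO in SCR cells was 0, and it was 1 with median-ratio size factors, 2 with the replicate block, 2 with all 4 groups in the fit and 0 to 1 with a library left out. In siB cells it was 8, with 3 at least 2-fold (4 with median-ratio size factors or voom, 5 with a pseudocount of 0.1), and 6 with all 4 groups in the fit and 7 to 8 with a library left out. Between siB and SCR cells in AAI it was 0, and it was 3 with the replicate block and 0 to 1 with a library left out. In DMSO and for the interaction it was 0 in every alternative run. The cause of these shifts was not tested. The block changed no other count of members. For siB DMSO and siB AAI (0.21, 0.026 and 0.19) and for SCR DMSO and siB DMSO (0.73, 0.59 and -0.19) same-numbered libraries did not all deviate together, and there the numbers are only shared.

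Directions turned only for differences that did not pass in the reported fit. With median-ratio size factors they were MAX in SCR cells given AAI (-0.078), MXI1 between siB and SCR cells in DMSO (-0.052) and the MXD1 interaction (0.065). With a library left out, the log2 difference ran from -0.30 to 0.14 for MXD4, -0.10 to 0.11 for MNT and -0.12 to 0.41 for ARRDC4 in SCR cells given AAI. It ran from -0.36 to 0.21 for MXD3, -0.23 to 0.010 for MXD4 and -0.20 to 0.0075 for MNT between siB and SCR cells in AAI. In DMSO it ran from -0.036 to 0.43 for MYC, -0.044 to 0.19 for MYCL, -0.073 to 0.15 for MXI1 and -0.15 to 0.34 for MXD3. The interaction ran from -0.24 to 0.23 for MXD1 and from -0.50 to 0.076 for MXD3. Depth limits MYCL most, with 52 reads in the library where it had fewest, against 1483 for MYC.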
